A study of Mus musculus with 4 samples.

Results

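Repeat elements of the mouse gammaretrovirus kind were examined in RNA-seq of embryonic stem cells (ESCs), the pluripotent cells of the early embryo kept in culture. They are the annotated copies named MuLV, MMVL30, MuRRS, RLTR4 or RLTR6. Copies were taken by their repeat name, and these names were chosen with earlier results of these data known. These 10 repeat names held 7955 copies of the 3658072 transposable element (TE) copies in the deposited counts, which carry 1072 repeat names in all. G3 Terc-/- ESCs, of the third generation without Terc, the RNA template of telomerase, were compared with WT ESCs, with 2 libraries of each genotype, to ask which TE copies and gene transcripts differ when telomerase is missing. All 4 libraries came from C57BL/6 cells grown on feeder cells with leukemia inhibitory factor and were made from poly(A) RNA, and the titles, which carry G3 for WT libraries too, name N12 for both WT libraries and F35 for both G3 Terc-/- libraries. Each genotype was thus 1 ESC line, so that a difference between genotypes and a difference between lines cannot be told apart. Whether the 2 libraries of a line came from separate cultures is not given in the labels, and the p-values measure the spread between these libraries.

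Murine leukemia virus (MuLV) is a gammaretrovirus that entered the mouse germ line and left endogenous copies. A full copy has a long terminal repeat (LTR) at each end, which holds the promoter and the polyadenylation signal, and an internal part with the gag, pol and env genes. VL30 elements have LTRs and an internal part without intact viral genes, and their RNA can be packaged into MuLV particles. MuRRS elements (murine retrovirus-related sequences) are old relatives of which most copies are incomplete. ESCs are known for silencing MuLV, through the DNA-binding protein Zfp809, the corepressor Trim28 and the H3K9 methyltransferase Setdb1.

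Terc itself (chromosome 3, from 96414437 to 96414833 of GRCm38) had 7 and 2 WT counts and no count in G3 Terc-/- ESCs. TE counts per library lay between 1805047 and 2104586, and gene counts between 18047995 and 22520017. The elements described here held between 0.301% and 0.408% of the TE counts of a library, 28523 counts in all. Where both libraries of a genotype have no count, a floor of 3 counts over the genotype is used, which covers counting error only.

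By repeat name, the elements fell into 3 groups. The MuLV group comprised MuLV-int and RLTR4_MM-int, both internal sequence, and RLTR4_Mm, the LTR, with 1063 copies together. The VL30 group comprised MMVL30-int and RLTR6-int, both internal sequence, and the LTRs RLTR6_Mm, RLTR6B_Mm and RLTR6C_Mm, with 3161 copies. The MuRRS group comprised MuRRS-int and MuRRS4-int, both internal sequence, with 3731 copies. The MuLV group held 47.5% of the counts of these elements although it was the smallest by copies, the VL30 group held 43.8%, and the MuRRS group, the largest by copies, held 8.71%. Lengths are not in the counts, so that none of these shares is a level per length.

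Few copies carried nearly all of the counts. Of the 7955 copies, 6973 had no count in any of the 4 libraries, 982 (12.3%) had at least 1 count, and 356 (4.48%) reached the minimum of 5 counts over the libraries and were tested. The tested copies held 96.0% of the counts. In MuLV-int, copy 75 alone held 96.5% of the counts of its name, where the number is the running number of the copy within its name in the deposited counts. The top copy, the copy with the largest count over the 4 libraries, held 31.2% in RLTR4_Mm (copy 67), 26.1% in MuRRS-int (copy 35), 22.7% in MMVL30-int (copy 224), 19.4% in RLTR6-int (copy 936), 19.1% in RLTR6C_Mm (copy 64), 18.5% in RLTR4_MM-int (copy 43), 16.2% in RLTR6B_Mm (copy 142), 16.1% in MuRRS4-int (copy 2613) and 13.8% in RLTR6_Mm (copy 50). Each name is therefore described below with and without that copy. The MuRRS4-int name differed from the others in that its 4 copies with the most counts had consecutive numbers, 2612 to 2615, and held 50.0% of its counts. Positions of the copies are not in the counts, so that whether neighbouring numbers are neighbours in the genome, or whether a copy lies inside a gene transcript, was not tested.

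As a share of the TE counts, the MuLV group was higher in G3 Terc-/- than in WT ESCs. In CPM, counts per 1000000 TE counts of a library, it took 1381 and 1332 CPM in WT and 2075 and 1998 CPM in G3 Terc-/- libraries, a log2 ratio of the means of 0.59. Both G3 Terc-/- libraries lay above both WT libraries, and the gap was larger than the SD of 34.6 in WT and 54.7 in G3 Terc-/- libraries (n = 2 each). The VL30 group took 1557 and 1372 CPM in WT and 1692 and 1614 CPM in G3 Terc-/- libraries, a log2 ratio of 0.17. The genotypes of the VL30 group did not overlap either, but the 2 WT libraries differed from each other by more than WT replicate 1 did from either G3 Terc-/- library. The MuRRS group took 294 and 310 CPM in WT and 317 and 317 CPM in G3 Terc-/- libraries, a log2 ratio of 0.07. An exact permutation test of 2 libraries against 2 cannot give a two-sided p under 0.333, so that these shares are given without a p. Without the top copies the log2 ratio was 0.46 for the MuLV group, 0.26 for the VL30 group and 0.16 for the MuRRS group.

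Counts were then summed by repeat name and tested among 917 repeat names with edgeR's quasi-likelihood test, at the study's cutoffs for repeat names, 1.5-fold and a p of 0.05. RLTR6B_Mm and MuRRS-int were higher in G3 Terc-/- ESCs and none of the 10 names was lower, beside 5.13% of all repeat names tested that were higher and 2.94% that were lower. By an adjusted p (Benjamini-Hochberg over the 917 names) under 0.05 with no cutoff on size, 6 of the 10 names were higher, beside 13.2% of all names, and 0 were lower, beside 11.6%. At an unadjusted p under 0.05 with no cutoff on size, edgeR likewise found 6 higher and 0 lower, beside 18.2% and 18.1% of all names, and DESeq2 found 6 higher and 0 lower, 5 and 0 of them by adjusted p. The libraries of the genotypes did not overlap in 7 names, with G3 Terc-/- above WT in 6 (29.3% of all names) and below it in 1 (31.3% of all names). With the top copy of every name left out, MuLV-int, RLTR6B_Mm and MuRRS-int were higher at the cutoffs by edgeR and none was lower (0 lower also by DESeq2 and at an unadjusted p), beside 4.8% and 2.34% of 854 names. Levels below are CPM of TE counts after TMM scaling, and fold changes are edgeR's log2 ratio of G3 Terc-/- over WT. The standard error (SE) was computed as the absolute log2 ratio divided by the square root of the F statistic of edgeR's test.

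**Figure D1:**
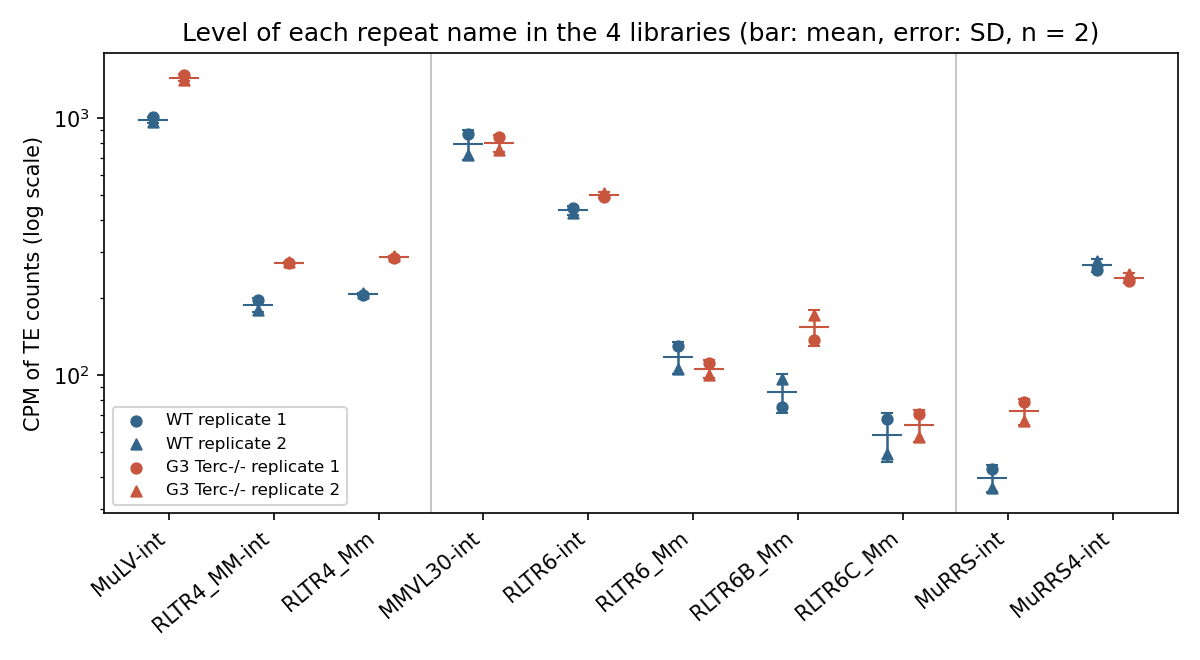
Level of the 10 repeat names in each library, in CPM of TE counts on a log axis, with MuLV names left, VL30 names in the middle and MuRRS names right. Points are libraries, horizontal bars are means and error bars the SD (n = 2). The 3 MuLV names, RLTR6-int, RLTR6B_Mm and MuRRS-int lay higher in both G3 Terc-/- libraries, MuRRS4-int lay lower in both, and MMVL30-int, RLTR6_Mm and RLTR6C_Mm overlapped.

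All 3 names of the MuLV group were higher in G3 Terc-/- ESCs by adjusted p, each by less than 1.5-fold. MuLV-int, the internal sequence with the viral genes, had 2033 and 2001 WT counts against 3111 and 2574 G3 Terc-/- counts. Its level was 986.6 ± 27.7 CPM in WT and 1441 ± 47.0 CPM in G3 Terc-/- libraries (SD, n = 2), a log2 fold change of 0.55 (SE 0.044) with an adjusted p of 9.46e-06 by edgeR's quasi-likelihood test. Its 1.46-fold difference was larger than the spread between replicates and just under the cutoff of 1.5-fold. RLTR4_MM-int, internal sequence annotated under the name of the MuLV LTR, had 396 and 371 WT counts against 575 and 502 G3 Terc-/- counts, a log2 fold change of 0.54 (SE 0.084, adjusted p = 0.0012 by edgeR). RLTR4_Mm, the LTR, had 414 and 431 WT counts against 600 and 530 G3 Terc-/- counts, a log2 fold change of 0.47 (SE 0.078, adjusted p = 0.0017 by edgeR). In all 3 names both G3 Terc-/- libraries lay above both WT libraries after scaling. Scaled by the gene counts in place of the TE counts, MuLV-int (log2 0.62) and RLTR4_MM-int (log2 0.61) passed the cutoff of 1.5-fold, and RLTR4_MM-int passed it also without WT replicate 1 (log2 0.61).

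The top copy weighed differently on each MuLV name. Copy 75 of MuLV-int had 1973 and 1937 WT counts against 2998 and 2469 G3 Terc-/- counts, a log2 fold change of 0.58 (SE 0.080, adjusted p = 3.31e-07 by edgeR over 176114 copies), and its gain made up 94.5% of the net gain of the name in CPM. The other MuLV-int copies summed to 60 and 64 WT counts against 113 and 105 G3 Terc-/- counts. Without copy 75 the log2 fold change of the name was 0.85 (SE 0.15, adjusted p = 0.0065 by edgeR over 854 names), past the cutoff of 1.5-fold. Most of this gain lay in copies 71 and 69. Copy 71 had 11 and 8 WT counts against 38 and 29 G3 Terc-/- counts. Copy 69, named after its values were seen, had 1 and 9 against 20 and 20 (log2 fold change 2.08, SE 0.56, adjusted p = 0.0359 by edgeR). RLTR4_MM-int went the other way. Its copy 43 had 26 and 37 WT counts against 139 and 139 G3 Terc-/- counts, rising from 8.21% to 25.8% of the counts of its name, with a log2 fold change of 2.24 (SE 0.21, adjusted p = 1.06e-12 by edgeR). The gain of copy 43 was 64.8% of the net gain of RLTR4_MM-int, and without it the log2 fold change of the name was 0.22 (SE 0.087, adjusted p = 0.125 by edgeR). In RLTR4_Mm, copy 67 (133 and 138 counts in WT, 170 and 176 in G3 Terc-/- libraries) made up 27.5% of the net gain, and without it the name kept a log2 fold change of 0.49 (SE 0.078, adjusted p = 0.0048 by edgeR).

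**Figure D2:**
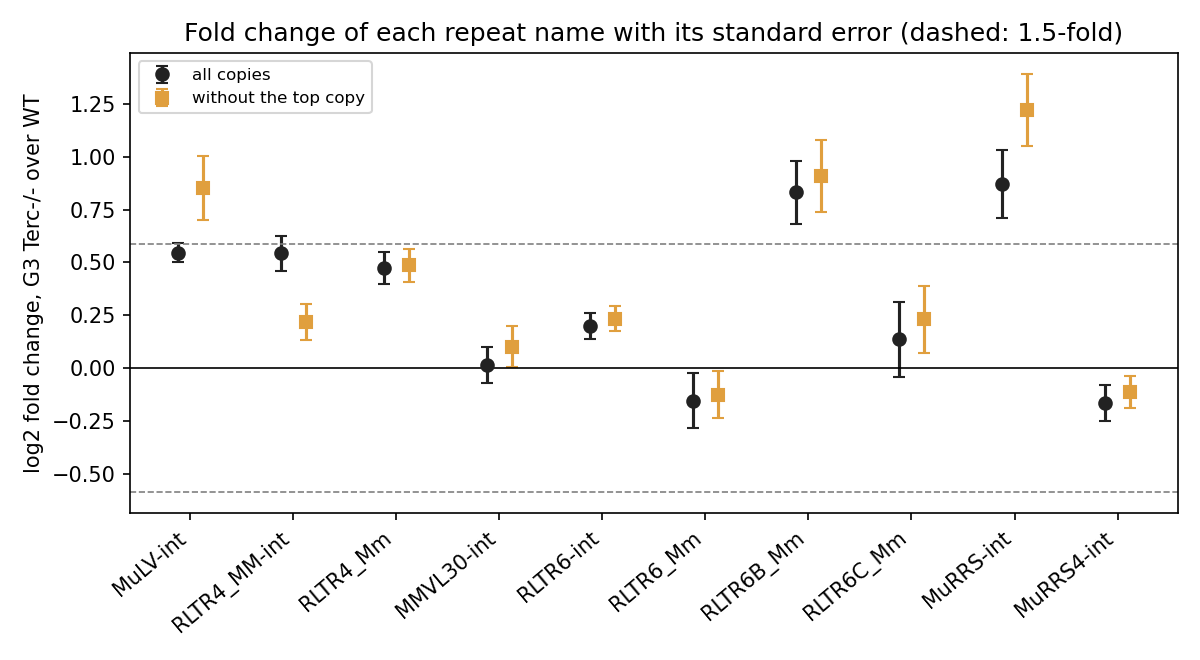
Log2 fold change of G3 Terc-/- over WT for each repeat name with all copies (circles) and without the top copy (squares), with the standard error computed from edgeR's F statistic. Dashed lines mark the cutoff of 1.5-fold. Leaving out 1 copy moved MuLV-int from 0.55 to 0.85, RLTR4_MM-int from 0.54 to 0.22 and MuRRS-int from 0.87 to 1.22.

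Of the VL30 names, 1 LTR was higher at the cutoffs, and the internal sequence with the most counts differed by less than its replicates did. RLTR6B_Mm, a VL30 LTR, had 152 and 200 WT counts against 288 and 313 G3 Terc-/- counts. Its level was 85.9 ± 15.1 CPM in WT and 154 ± 24.5 CPM in G3 Terc-/- libraries (SD, n = 2), a log2 fold change of 0.83 (SE 0.15, adjusted p = 0.0030 by edgeR), and the genotypes did not overlap. MMVL30-int, the main internal sequence, had 1750 and 1487 WT counts against 1782 and 1379 G3 Terc-/- counts, with overlapping levels of 792 ± 104 and 799 ± 63.8 CPM (SD, n = 2) and a log2 fold change of 0.01 (SE 0.084, adjusted p = 0.930 by edgeR). RLTR6-int, internal sequence named after the LTR, had 906 and 880 WT counts against 1042 and 934 G3 Terc-/- counts, a log2 fold change of 0.20 (SE 0.061, adjusted p = 0.0375 by edgeR). The adjusted p of RLTR6-int was 0.194 without WT replicate 2, 0.0948 without G3 Terc-/- replicate 2 and 0.0952 by DESeq2, so that it was past 0.05 only with both of these libraries and not by DESeq2.

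The other two VL30 LTRs overlapped between the genotypes. RLTR6C_Mm had 136 and 102 WT counts against 148 and 105 G3 Terc-/- counts, a log2 fold change of 0.14 (SE 0.18). RLTR6_Mm had 262 and 218 WT counts against 235 and 182 G3 Terc-/- counts, a log2 fold change of -0.15 (SE 0.13). Without the top copies the fold changes of the VL30 names moved little, to 0.91 for RLTR6B_Mm, 0.10 for MMVL30-int, 0.24 for RLTR6-int, 0.23 for RLTR6C_Mm and -0.12 for RLTR6_Mm on the log2 scale. Copy 224 of MMVL30-int, the second copy by counts among all these elements, had 446 and 376 WT counts against 336 and 292 G3 Terc-/- counts, a log2 fold change of -0.29 (SE 0.12) with an unadjusted p of 0.0158 by edgeR and an adjusted p of 0.336. The top copies of the other VL30 names did not pass the test. Copy 936 of RLTR6-int had 224 and 149 WT counts against 196 and 162 G3 Terc-/- counts, a log2 fold change of 0.04 (SE 0.15). Copy 142 of RLTR6B_Mm had 35 and 34 WT counts against 41 and 44 G3 Terc-/- counts (0.41, SE 0.27). Copies 64 of RLTR6C_Mm (40 and 13 against 24 and 17) and 50 of RLTR6_Mm (48 and 24 against 33 and 19) had log2 fold changes of -0.27 (SE 0.38) and -0.37 (SE 0.32). In the last 2 copies and in copy 936 the genotypes overlapped, and WT replicate 1 was the highest library.

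Some MMVL30-int copies were higher although the sum over its copies was nearly equal between the genotypes. The largest gain in CPM was that of copy 816, with 32 and 32 WT counts against 119 and 92 G3 Terc-/- counts (log2 fold change 1.82, SE 0.22, adjusted p = 1.08e-08 by edgeR). The next was copy 701, with 62 and 68 WT counts against 92 and 107 G3 Terc-/- counts (log2 fold change 0.72, SE 0.20, adjusted p = 0.0380 by edgeR). Copy 224, with the largest loss in CPM, did not pass the test. In RLTR6B_Mm the gain was held by few copies, of which copies 186 and 183 made up 50.8% of the net gain. Copy 186 had 3 and 6 WT counts against 49 and 48 G3 Terc-/- counts (log2 fold change 3.50, SE 0.42, adjusted p = 9.36e-09 by edgeR), and copy 183 had 3 and 2 against 29 and 23 (log2 fold change 3.41, SE 0.57, adjusted p = 4.25e-05). In RLTR6-int the gain was spread wider, and the 2 copies that gained most made up 33.2% of its net gain.

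Of the MuRRS names, MuRRS-int was higher at the cutoffs and MuRRS4-int did not pass the test. MuRRS-int had 87 and 75 WT counts against 165 and 121 G3 Terc-/- counts, a rise from 39.7 ± 4.82 to 72.2 ± 8.49 CPM (SD, n = 2) and a log2 fold change of 0.87 (SE 0.16, adjusted p = 0.0031 by edgeR). MuRRS4-int had 518 and 577 WT counts against 489 and 452 G3 Terc-/- counts, with both G3 Terc-/- levels below both WT levels and a log2 fold change of -0.16 (SE 0.084, adjusted p = 0.192 by edgeR). In MuRRS-int the top copy, copy 35, had 35 and 26 WT counts against 33 and 23 G3 Terc-/- counts and overlapped, and without it the log2 fold change of the name was 1.22 (SE 0.17, adjusted p = 0.0020 by edgeR). Copy 952 of MuRRS-int made up 46.1% of the net gain, with 4 and 1 WT counts against 35 and 29 G3 Terc-/- counts (log2 fold change 3.71, SE 0.54, adjusted p = 1.87e-06 by edgeR). In MuRRS4-int the 4 consecutive copies 2612 to 2615 summed to 279 and 303 WT counts against 217 and 218 G3 Terc-/- counts. Copy 2613 of these had 92 and 104 WT counts against 66 and 66 G3 Terc-/- counts, a log2 fold change of -0.46 (SE 0.19, adjusted p = 0.352 by edgeR).

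At the level of single copies, 47 of the 356 tested copies (13.2%) were higher in G3 Terc-/- ESCs at the study's cutoffs for copies, 2-fold and a p of 0.05, and 6 (1.69%) were lower. Of all 176114 TE copies tested, 4.7% were higher and 3.87% were lower. The median log2 fold change was 0.26 over the 356 copies and 0.02 over all copies tested. With an adjusted p under 0.05 as well, 16 copies were higher and 1 was lower, beside 0.634% and 0.366% of all copies.

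Many of these copies had few counts. Of the 53 copies, 26 had fewer than 20 counts over the 4 libraries, and 15 of the 47 higher copies had 0 counts in both WT libraries with 6 to 28 counts in all. A copy at 0 in WT entered the test only through its counts in G3 Terc-/- libraries. Among the 146 copies with at least 20 counts, 25 (17.1%) were higher and 3 (2.05%) were lower, beside 6.65% and 5.44% of all copies with at least 20 counts. Of the 98 copies that filterByExpr keeps, 18 were higher and 1 was lower, beside 7.68% and 5.88% of all copies so kept. Without G3 Terc-/- replicate 1, 15 of the 356 copies (4.21%) were higher, beside 1.65% of all copies tested, and without G3 Terc-/- replicate 2 there were 17 (4.78%), beside 1.93%. Most, but not all, copies called higher with 1 library left out were among the 47 called higher with all libraries. The copies called lower with 1 library left out were in part or wholly other copies than the 6 called lower with all libraries.

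**Figure D3:**
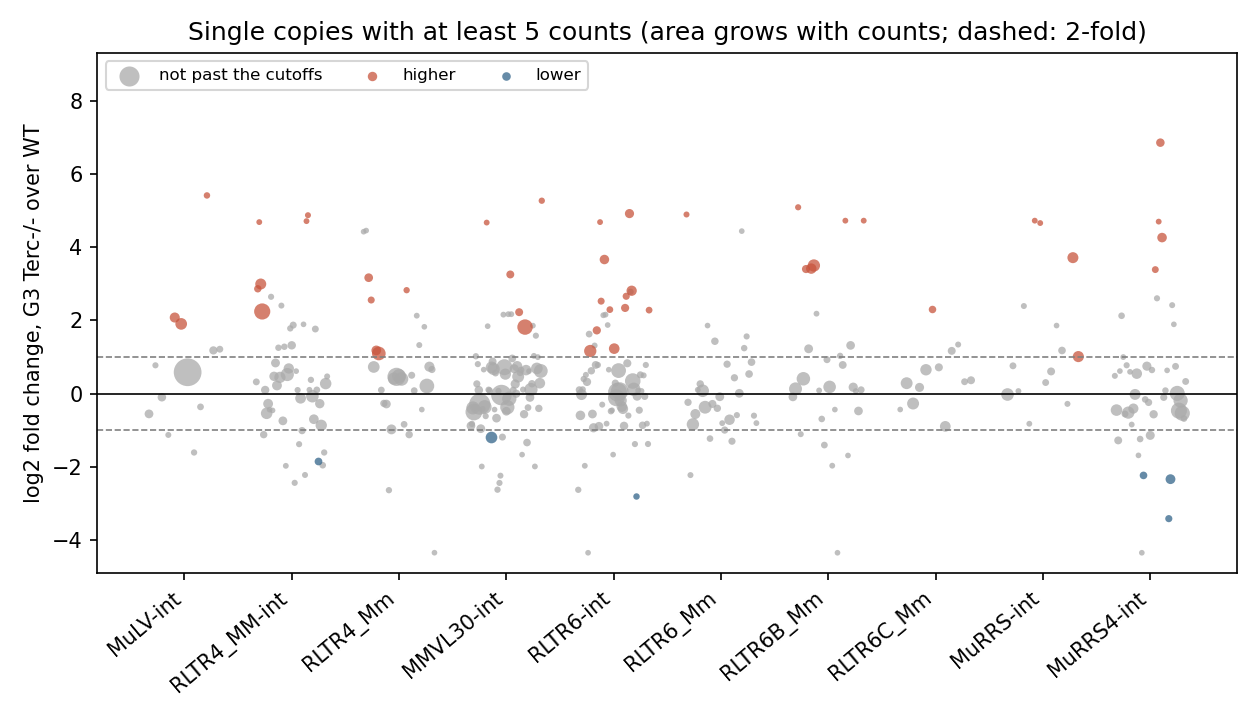
Log2 fold change of G3 Terc-/- over WT for the 356 copies with at least 5 counts, by repeat name and, within a name, in the order of their running number, with point area growing with the counts. Red points (47) were higher and blue points (6) lower at the cutoffs for copies, and dashed lines mark 2-fold. The largest point is copy 75 of MuLV-int, inside the dashed lines, and most points far above 0 are small.

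By group, 14 of 90 MuLV copies were higher and 1 was lower, 25 of 209 VL30 copies were higher and 2 were lower, and 8 of 57 MuRRS copies were higher and 3 were lower. The median log2 fold change was 0.43 in the MuLV group, 0.12 in the VL30 group and 0.30 in the MuRRS group. By name, RLTR6-int had the most higher copies, 12 of 66 with 1 lower, while its sum over copies differed by only 0.20 on the log2 scale. RLTR6B_Mm had 6 of 28 higher, RLTR4_MM-int 6 of 49 with 1 lower, MMVL30-int 5 of 73 with 1 lower, RLTR4_Mm 5 of 29, MuRRS-int 4 of 14 and MuLV-int 3 of 12. RLTR6_Mm (1 of 30, 3.33%) and RLTR6C_Mm (1 of 12, 8.33%) each had a single higher copy. The shares of higher copies in MMVL30-int (6.85%) and RLTR6_Mm were near that of all copies. MuRRS4-int had 4 of 43 higher and held 3 of the 6 lower copies.

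In the MuLV group, the copies with the most counts among those with an adjusted p under 0.05 were, beside MuLV-int copy 75 and RLTR4_MM-int copy 43, the copies RLTR4_Mm 31, MuLV-int 71 and RLTR4_MM-int 41. RLTR4_Mm copy 31 had 26 and 28 WT counts against 62 and 46 G3 Terc-/- counts (log2 fold change 1.10, SE 0.27, adjusted p = 0.0175 by edgeR), and the value fell to 0.96, under 2-fold, without G3 Terc-/- replicate 1. MuLV-int copy 71 had 11 and 8 WT counts against 38 and 29 G3 Terc-/- counts (log2 fold change 1.90, SE 0.40, adjusted p = 0.0019 by edgeR). RLTR4_MM-int copy 41 had 3 and 5 WT counts against 33 and 28 G3 Terc-/- counts (log2 fold change 2.99, SE 0.49, adjusted p = 2.95e-05 by edgeR). In each of these copies both G3 Terc-/- libraries lay above both WT libraries.

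A single copy was lower by adjusted p. Copy 2415 of MuRRS4-int had 10 and 29 WT counts against 4 and 3 G3 Terc-/- counts, a log2 fold change of -2.33 (SE 0.61, adjusted p = 0.0277 by edgeR). Its WT libraries differed from each other by more counts than WT replicate 1 did from either G3 Terc-/- library, and it no longer passed the cutoffs without WT replicate 2 (log2 fold change -1.39) or without G3 Terc-/- replicate 1 (-2.46) or 2 (-2.23).

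**Figure D4:**
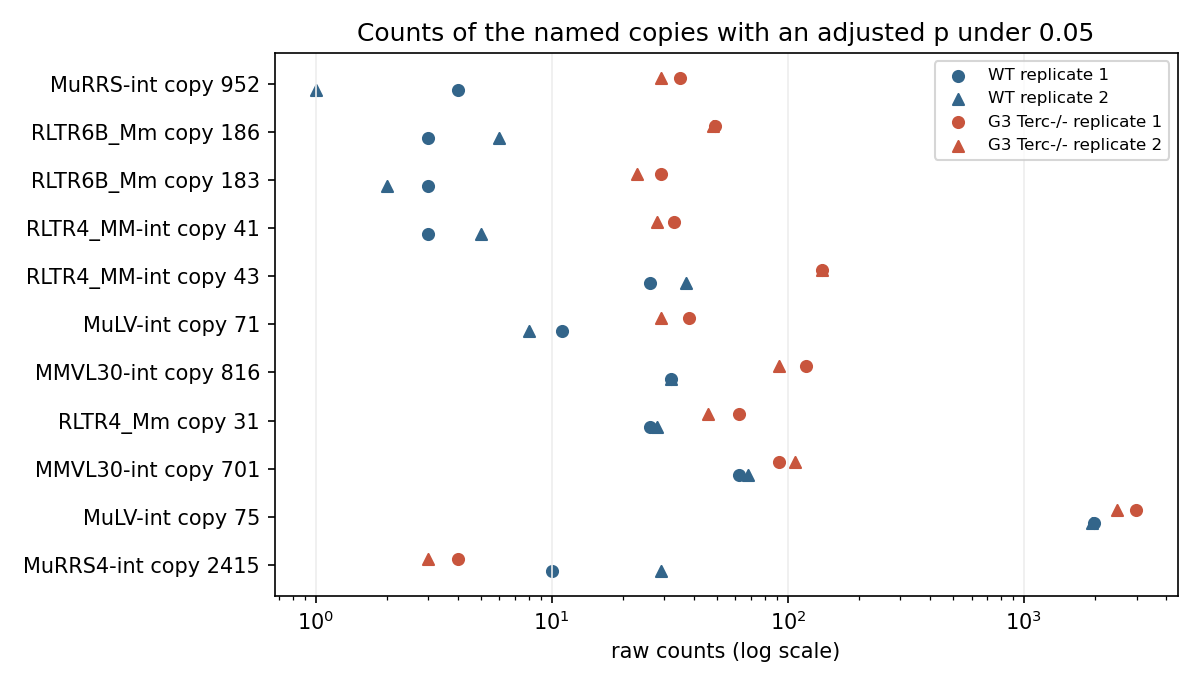
Raw counts in each library, on a log axis, of the 10 copies with the most counts among the higher copies with an adjusted p under 0.05, and of the 1 lower copy. Red G3 Terc-/- points lie right of blue WT points in the 10 higher copies, by the least in MuLV-int copy 75. Copies are in the order of edgeR's fold change, which was largest in MuRRS-int copy 952.

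Some copies past the cutoffs had consecutive running numbers, which was noticed after their values were seen. There were 6 such pairs, and in each pair both copies differed in the same direction. Copies 360 and 361 of MuRRS4-int had 0 and 0 and 1 and 1 counts in WT, and 22 and 6 and 20 and 20 in G3 Terc-/- libraries. Against a floor of 3 counts over the WT libraries, copy 360 was 10.03-fold higher by the summed G3 Terc-/- counts. This value leaves out the spread between the G3 Terc-/- libraries, which had 11.7 and 3.58 CPM. Copy 361 had a log2 fold change of 4.26 (SE 0.74, adjusted p = 8.27e-05 by edgeR). The lower copy 2415 of MuRRS4-int was next to copy 2414, which had 3 and 11 WT counts against 0 and 1 G3 Terc-/- counts. The other pairs were RLTR4_MM-int 12 and 13, RLTR4_Mm 20 and 21, RLTR4_Mm 30 and 31, and RLTR6-int 951 and 952, all higher. Whether the copies of a pair are parts of 1 element, or share reads of 1 transcript, was not tested.

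Replicate libraries of a genotype also differed, and for some names in the same way in both genotypes. The log2 ratio of replicate 1 to replicate 2 was 0.45 in WT and 0.29 in G3 Terc-/- libraries for RLTR6C_Mm, 0.30 and 0.16 for RLTR6_Mm, 0.27 and 0.16 for MMVL30-int, and 0.25 and 0.24 for MuRRS-int. It was -0.36 and -0.33 for RLTR6B_Mm, -0.12 and -0.09 for MuRRS4-int, and 0.06 and 0.07 for MuLV-int. Genes that mark fibroblasts, the usual feeder cells, also differed between replicates, with replicate 1 above replicate 2 in 17 of 18 tested genes in either genotype and median log2 ratios of 0.58 in WT and 0.52 in G3 Terc-/- libraries. Their summed level was 1926 and 1622 CPM of gene counts in WT and 2533 and 2159 CPM in G3 Terc-/- libraries, with no overlap. Most of this sum and of its difference lay in 1 gene, Fn1, and the lack of overlap rested on it. Fn1 had 1073 ± 91.7 CPM in WT and 1601 ± 134 CPM in G3 Terc-/- libraries (SD, n = 2). The median log2 fold change of the feeder genes was 0.33. By adjusted p under 0.05 with no cutoff on size, 8 of the 18 were higher and 1 was lower by edgeR, beside 21.7% and 21.8% of all genes tested. At the cutoffs for genes, 2-fold and a p of 0.05, Dcn (1 of the 18) was higher and 0 were lower by edgeR, beside 4.73% and 3.13% of all genes, where 9 were higher and 1 was lower at an unadjusted p under 0.05 with no cutoff on size, beside 25% and 24.8%, and 0 and 0 passed the cutoffs by DESeq2. The part of feeder cells in the counts of these repeat names was not tested, and in bulk RNA fewer cells of a type and less RNA per cell cannot be told apart.

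**Figure D5:**
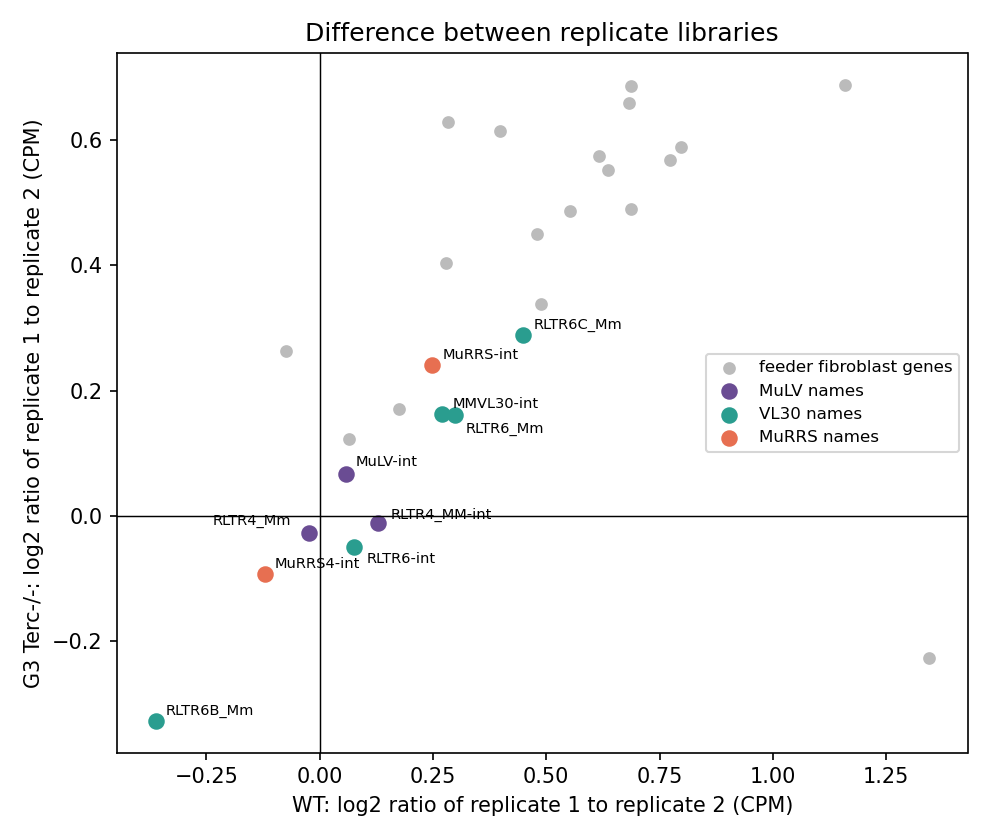
Log2 ratio of replicate 1 to replicate 2 in WT (horizontal) and in G3 Terc-/- (vertical) ESCs for the 10 repeat names, coloured by group, and for 18 feeder fibroblast genes (grey). MMVL30-int, RLTR6_Mm, RLTR6C_Mm and MuRRS-int lie on the side of most feeder genes, MuLV-int is near 0 on both axes, and RLTR6B_Mm and, nearer to 0, MuRRS4-int and RLTR4_Mm are on the opposite side.

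Markers of other cells that ESC cultures can hold were listed as well. The 16 genes of pluripotent cells, which check the labelled cell type, summed to 7018 and 7142 CPM of gene counts in WT and 8988 and 9391 CPM in G3 Terc-/- libraries, and none was at 0. Of these 16, 3 were higher (Tbx3, Nanog and Prdm14) and 1 was lower (Dppa3) at the cutoffs for genes, among 14896 genes tested. Of 10 primitive endoderm genes 3 were lower (Cubn, Dab2 and Gata6) and 0 were higher at the cutoffs by edgeR, beside 3.13% and 4.73% of all genes. DESeq2 also called 3 lower and 0 higher. At an unadjusted p under 0.05 with no cutoff on size, 1 of the 10 was higher and 5 were lower, beside 25% and 24.8% of all genes. Of 9 tested trophoblast genes 1 was higher (Eomes) and 5 were lower (Krt7, Krt8, Krt18, Gata3 and Hand1) at the cutoffs, beside 4.73% and 3.13%. By adjusted p under 0.05 with no cutoff on size, 13 pluripotent genes were higher and 3 were lower. By the same measure 1 primitive endoderm gene was higher and 5 were lower, and 1 trophoblast gene was higher and 7 were lower. Of all genes, 21.7% were higher and 21.8% were lower by that measure. Dcn, Prdm14, Dppa3, Gata6, Eomes, Gata3 and Hand1 were named after their values were seen. The marker levels differed between the genotypes, as the MuLV names did, but not all in the same direction. The median log2 fold change was 0.43 for the pluripotent, -0.59 for the primitive endoderm and -1.06 for the trophoblast genes. Their part in the repeat counts was not tested.

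Genes that silence MuLV in ESCs were measured in the same libraries. Trim28, the corepressor brought to the provirus, was higher, with 35630 and 36215 WT counts against 49520 and 38403 G3 Terc-/- counts and a log2 fold change of 0.41 (SE 0.047, adjusted p = 9.46e-10 by edgeR). Zfp809, the zinc finger protein that binds the primer binding site of MuLV, had 518 and 555 WT counts against 570 and 462 G3 Terc-/- counts, a log2 fold change of 0.07 (SE 0.085, adjusted p = 0.558 by edgeR). Setdb1, the H3K9 methyltransferase, had 3990 and 4200 WT counts against 4007 and 3370 G3 Terc-/- counts, a log2 fold change of -0.03 (SE 0.052, adjusted p = 0.711 by edgeR). The log2 differences of Zfp809 and Setdb1 were smaller than their SE.

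Of 38 genes of MuLV silencing, 2 were lower at the cutoffs and 0 were higher by edgeR, beside 3.13% and 4.73% of all genes. By adjusted p under 0.05 with no cutoff on size, 4 were higher and 16 were lower, beside 21.7% and 21.8% of all genes, and at an unadjusted p 4 were higher and 17 were lower, beside 25% and 24.8%, while DESeq2 called 0 higher and 2 lower. The median log2 fold change of the list was -0.08, beside 0.01 over all genes. Cbx3, a heterochromatin protein that binds methylated H3K9, had 3400 and 3708 WT counts against 1427 and 1318 G3 Terc-/- counts (log2 fold change -1.24, SE 0.061, adjusted p = 9.09e-21 by edgeR). Dnmt3b, a de novo DNA methyltransferase, had 11230 and 11596 WT counts against 5129 and 4405 G3 Terc-/- counts (log2 fold change -1.13, SE 0.049, adjusted p = 1.59e-22 by edgeR). Smarcad1, a chromatin remodeller, had 3654 and 3828 WT counts against 1805 and 1704 G3 Terc-/- counts (log2 fold change -0.96, SE 0.059, adjusted p = 1.61e-17 by edgeR), close to 2-fold lower. Cbx3 and Smarcad1 lie on chromosome 6 between 45 and 80 Mb of GRCm38, where 122 of 129 tested genes had a log2 fold change below 0, with a median of -0.90. Their part in the counts of the MuLV copies was not tested.

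Of 23 genes of gammaretrovirus receptors and restriction factors, 20 passed the filter on low counts and were tested. At the cutoffs 1 was higher and 0 were lower by edgeR and by DESeq2, beside 4.73% and 3.13% of all genes by edgeR. By adjusted p with no cutoff on size 10 of the 20 were higher and 4 were lower, beside 21.7% and 21.8%, with 10 and 4 also at an unadjusted p under 0.05, beside 25% and 24.8%. Zc3hav1, which binds viral RNA, had 648 and 664 WT counts against 1799 and 1458 G3 Terc-/- counts (log2 fold change 1.43, SE 0.070, adjusted p = 7.26e-21 by edgeR). The receptors of ecotropic and of xenotropic and polytropic MuLV, Slc7a1 and Xpr1, both had a log2 fold change of 0.42 (SE 0.055 and 0.075) and did not overlap between the genotypes. Serinc3, which lowers the infectivity of retroviral particles, had a log2 fold change of 0.80 (SE 0.052), and Bst2, which tethers particles to the cell, one of -0.84 (SE 0.071). These 4 genes passed an adjusted p of 0.05 by edgeR, each under the cutoff of 2-fold.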

How the data were processed

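The authors trimmed the reads with Trim Galore, aligned them to mm10 with STAR and counted them, with featureCounts among the tools in the submitters' processing notes, and deposited raw counts per gene and per TE copy without normalization. The study describes uniquely mapped reads where it analyses single TE copies. Whether reads matching several near-identical copies entered the deposited counts, and the strand setting, are not given in the sources used here. Counts of 3658072 copies were summed by repeat name. Of 24116 gene identifiers, 24061 were matched to symbols and GRCm38 positions in RefSeq.

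Fits used edgeR 4.0.16 in R 4.3.3 (TMM, quasi-likelihood test with 1 term for genotype, Benjamini-Hochberg adjustment over all features). Repeat names and genes were filtered with filterByExpr, and copies needed 5 counts over the libraries. Cutoffs were the study's, a p of 0.05 with a fold change of 1.5 for names and 2 for copies and genes. Shares were computed over the TE counts of each library. Each fit was first tested on simulated data. Alternatives were DESeq2 1.42.0, its size factors, a replicate block, gene-count scaling, other filters, adjusted p-values, and leaving out 1 copy per name or 1 library. Figures were drawn with matplotlib 3.10.9. The elements, gene lists and tests were chosen with earlier results of these data known. The text names every repeat name, its top copy and the 10 copies with the most counts in each direction among those with an adjusted p under 0.05. Also named are Terc, Trim28, Setdb1, Zfp809, Xpr1, Slc7a1 and up to 3 genes with the smallest p of each gene list. Those of the cell type markers are named only where they passed the cutoffs, apart from Fn1. No sequence is printed, since the counts hold no positions.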

Additional observations from a re-analysis of the deposited data

How the results depend on the processing

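The number of higher repeat names (2) was 4 when the TE counts were scaled by the gene counts, and the median log2 fold change of all repeat names was then 0.06 in place of -0.0046. Of all repeat names, 6.98% were then higher in place of 5.13%. The numbers of higher and lower copies (47 and 6) were 16 and 1 by adjusted p, 22 and 2 with DESeq2, 25 and 3 among copies with at least 20 counts, 18 and 1 with filterByExpr, and between 15 and 37 and between 2 and 9 when 1 library was left out. DESeq2 called 6.18% of the 356 copies higher and 0.562% lower, beside 1.60% and 1.01% of all copies tested. With the replicate number as a block there were 33 higher and 5 lower copies, all among the 47 and 6, beside 3.08% and 2.28% of all copies. The numbers of higher and lower names stayed at 2 and 0 with this block, and the adjusted p of RLTR6-int by edgeR was 0.0794 in place of 0.0375. The labels give no meaning to the replicate number, and same-numbered libraries correlated at 0.128 over genes and -0.102 over repeat names in their deviations from the group means. The crossed pairing, chosen after seeing the data, also gave 33 and 5 copies, beside 3.16% and 2.41% of all copies. The log2 ratio of the MuLV share (0.59) was 0.46 without the top copies and 0.64 over gene counts, and that of the MuRRS share (0.07) was 0.16 and 0.13. The causes were not tested. With 1 library left out, the lone library of a genotype is assumed to vary like the others, and the log2 fold change changed sign for names and copies without a call. It ranged from -0.11 to 0.16 for MMVL30-int (-0.026 to 0.24 without its top copy), from -0.071 to 0.38 for RLTR6C_Mm and from -0.30 to 0.0042 for RLTR6_Mm. Among copies, it ranged from -0.23 to 0.21 for MuRRS-int copy 35, from -0.23 to 0.37 for RLTR6-int copy 936, from -0.87 to 0.76 for RLTR6C_Mm copy 64 and from -0.79 to 0.22 for RLTR6_Mm copy 50. The counts of most copies are too low to show a 2-fold difference, and 6973 copies had none.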
